A study of Mus musculus with 11 samples.

Results

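The genes described here were 10 targets of the transcription factor NRF2, chosen by name from the 31053 genes of the expression matrices: Gclc, Gclm and Slc7a11, which supply glutathione; Gsr, Txnrd1, Srxn1 and Gpx2, which reduce oxidised thiols and peroxides; G6pdx, which supplies NADPH; and Nqo1 and Hmox1, which handle quinones and heme. All 10 were present in the matrices and all 10 passed the filter on low counts for the comparison of time points, in which 14821 genes were tested. Gene expression was measured by spatial transcriptomics (Visium), in which a frozen mouse liver section lies on a grid of barcoded spots and each captured transcript is counted once by its unique molecular identifier (UMI). A spot covers several cells, so values belong to small regions and not to cells. The series follows the liver after an overdose of acetaminophen (APAP), as 11 sections in 4 groups: 3 uninjured ones labelled 0 h (numbered 2, 3 and 4), 2 lettered sections each from 24 h and 36 h (A and B), and 4 from 48 h (A to D).

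No group was described as carrying a transgene or a deleted allele. The labels give neither strain nor age, and the study's methods describe young adult male mice, fasted before a single injection of APAP. Those methods state 1 mouse per time point for this assay, and no label ties a section to a mouse, so n counts sections and every p covers the spread between sections only. Mouse and time cannot be told apart, and the same holds for any batch, of which no label speaks.

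NRF2, encoded by Nfe2l2, is bound in the cytoplasm by KEAP1, which hands it to the CUL3 ubiquitin ligase for degradation. Electrophiles modify cysteines of KEAP1, NRF2 then accumulates, and with a small MAF partner it binds antioxidant response elements in DNA. In the liver APAP is oxidised, mostly by the cytochrome P450 enzymes of central (pericentral) hepatocytes, to a reactive quinone imine that consumes glutathione, which makes this pathway a classical part of the response to an overdose.

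In the annotation of mm10, Srxn1 spans chr2:152105516-152111376 on the plus strand, Hmox1 chr8:75093621-75100589 on the plus strand, Nqo1 chr8:107388225-107403206 on the minus strand, Gclc chr9:77754535-77794485 on the plus strand and Gsr chr8:33652523-33698163 on the plus strand. The upstream sequence of Srxn1 is shown because this gene changed most among the well-detected targets and holds matches to a core of the antioxidant response element on each strand. The 250 bases before its RefSeq start, at chr2:152105274-152105523 on the plus strand of GRCm38.p6, carry the matches in capitals.
Srxn1: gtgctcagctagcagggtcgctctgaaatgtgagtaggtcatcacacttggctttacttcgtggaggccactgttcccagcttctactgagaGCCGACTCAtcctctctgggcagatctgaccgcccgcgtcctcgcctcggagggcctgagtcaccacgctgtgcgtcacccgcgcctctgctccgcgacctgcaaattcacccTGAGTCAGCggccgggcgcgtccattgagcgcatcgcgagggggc
The motifs searched were TGACNNNGC and TGAGNNNGC, on both strands. Srxn1 held TGAGTCAGC 45 bases and, on the other strand, TGAGTCGGC 158 bases before the start, and another match lay just after the start. RefSeq windows from 250 bases before to 50 bases after a start were at hand for 7 of the 10 genes (9 windows, 3 of them for Txnrd1). Gclc, Gsr and Hmox1 had none.

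The matches in 4 further genes are shown so that they can be set beside that of Srxn1. Each stretch reads 5′ to 3′ along its gene, and the capitals, here all on the opposite strand, mark the match.
Gclm: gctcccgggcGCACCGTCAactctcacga
Slc7a11: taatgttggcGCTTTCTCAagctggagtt
Txnrd1: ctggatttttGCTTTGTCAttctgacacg
G6pdx: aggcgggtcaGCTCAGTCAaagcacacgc
They lay 134 bases (Gclm), 97 bases (Slc7a11), 92 bases (Txnrd1) and 57 bases (G6pdx) before the start, at chr3:122245423-122245431, chr3:50443702-50443710, chr10:82859114-82859122 and chrX:74428929-74428937. The genes of Gclm and Txnrd1 lie on the plus strand and those of Slc7a11 and G6pdx on the minus strand, and the match of Txnrd1 was in 1 of its 3 windows. The windows of Nqo1 and Gpx2 held no match. In all, 5 of the 9 windows held a match, beside 27.8% of all 32851 windows of this length, so a match is common by itself. These are matches of letters and not measured binding.

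Section totals ran from 31292663 to 67045372 UMIs over 1490 to 3466 spots that passed the filter. The 6 hepatocyte transcripts (Alb, Apoa1, Apoa2, Apoc3, Ttr and Trf) were all detected in every section and their summed level was 155159 to 164401 counts per 1000000 (CPM) at 0 h and 93786 to 121292 CPM after APAP. CPM here are UMIs per 1000000 of a section total scaled by the trimmed mean of M-values (TMM), which sets the bulk of genes level between sections. Scaling by raw totals instead raised the median log2 fold change of all tested genes from 0.05 to 0.37 at 24 h, from 0.05 to 0.49 at 36 h and from 0.01 to 0.54 at 48 h against 0 h, so changes smaller than this depend on the scaling. The cause of this shift was not tested. In section sums, fewer cells of a type and less RNA per cell cannot be told apart.

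Markers of other cells moved with time, and their part in the results was not tested. The 5 mononuclear phagocyte markers, all detected in every section, summed to 305 to 322 CPM at 0 h, 416 to 426 CPM at 24 h, 321 to 483 CPM at 36 h and 574 to 1121 CPM at 48 h. The 5 neutrophil markers summed to 3.17 to 9.05 CPM at 0 h and to 25.4 to 142 CPM after APAP. The 7 mesenchyme markers summed to 250 to 286 CPM at 0 h and to 198 to 245 CPM at 24 h. At 36 h they summed to 229 to 566 CPM and at 48 h to 674 to 1469 CPM. The 5 endothelial markers summed to 223 to 253 CPM at 0 h and to 187 to 204 CPM at 24 h. At 36 h they summed to 179 to 283 CPM and at 48 h to 186 to 237 CPM.

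Against 0 h, the targets split into a set that rose at every time after APAP and a set that did not. Srxn1, Hmox1, Nqo1, Slc7a11 and Gpx2 were called higher at 24, 36 and 48 h, and Txnrd1 at 24 h only. The glutathione-synthesis genes Gclc and Gclm and the reductase Gsr passed the test at no time. A gene was called at an adjusted p under 0.05 in the edgeR quasi-likelihood test, adjusted over all genes tested. At 24 h 7 of the 10 genes were called, 6 higher and 1 lower, where 41.7% of all tested genes were called (23.1% higher and 18.6% lower); with raw totals it was 6 higher and none lower. At 36 h 5 of 10 were called, all higher, beside 29.2% of all genes (16.8% higher), but 3 without 0 h section 2 and 2 without 36 h section B. At 48 h 5 of 10 were called, all higher, beside 44.2% (23.3% higher). Slc7a11 and Gpx2 passed the filter on low counts only through the injured sections, so their calls were partly set by it. Of the other 8 genes 4 were higher and 1 lower at 24 h, and 3 were higher and none lower at 36 h and at 48 h. The 3 comparisons share the same 0 h sections. The groups did not overlap with 0 h in 9, 7 and 6 of the 10 genes at 24, 36 and 48 h, where the same was true of 69%, 55.9% and 54.4% of all genes, so a gap between so few sections was common.

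**Figure D1:**
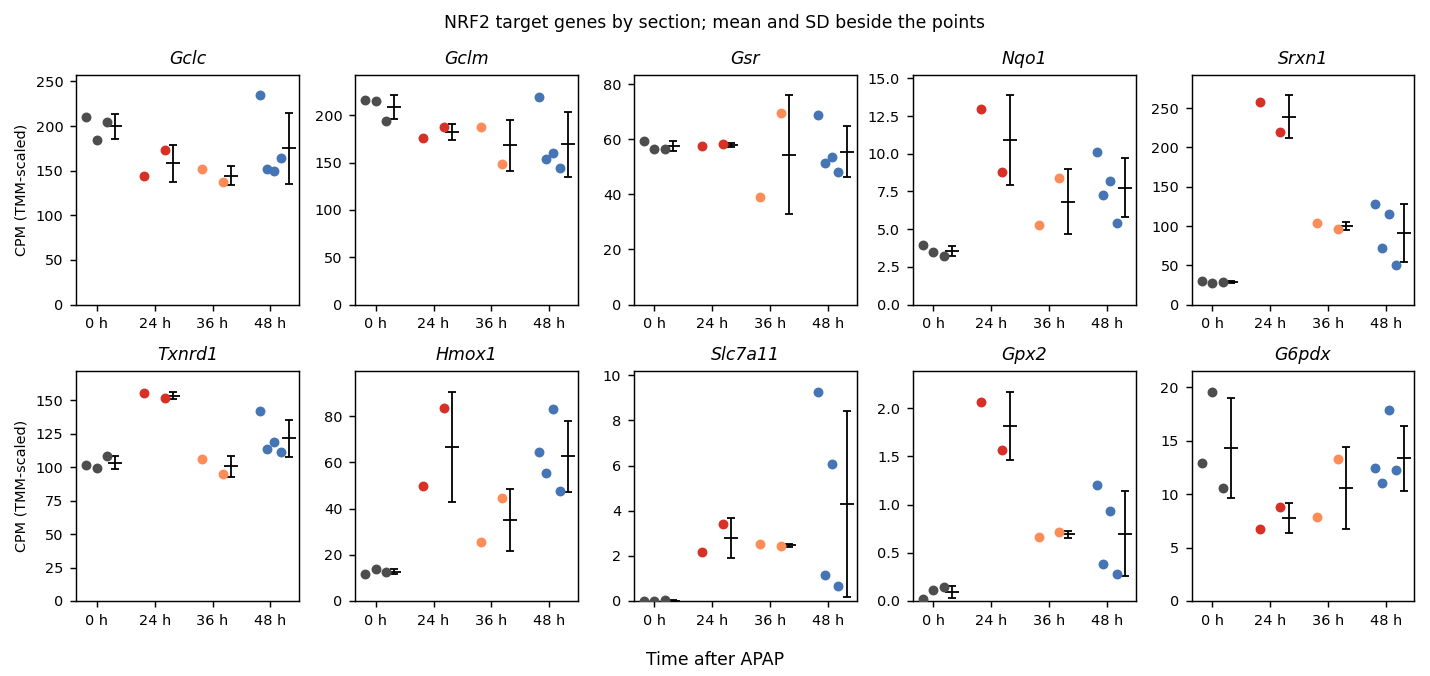
CPM (vertical axes, from 0) of each of the 10 genes against time after APAP, with 1 point for each section and the mean with SD beside each group. Srxn1, Hmox1, Nqo1, Slc7a11 and Gpx2 lie above all 3 uninjured sections in all 8 injured sections, while Gclc and Gclm lie below them in 7 of 8.

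Gclc encodes the catalytic subunit of glutamate-cysteine ligase, the rate-limiting enzyme of glutathione synthesis. It stood at 210, 184 and 204 CPM in the 0 h sections, 144 and 173 CPM at 24 h, 152 and 137 CPM at 36 h, and 234, 152, 149 and 164 CPM at 48 h. All injured sections but 48 h A were below the uninjured range. The log2 fold change against 0 h was -0.33 at 24 h (SE 0.19, adjusted p = 0.183), -0.47 at 36 h (SE 0.19, adjusted p = 0.0883) and -0.19 at 48 h (SE 0.16, adjusted p = 0.35), so none was called. Without 48 h section A the 48 h value was -0.36 and was called (adjusted p = 0.0244), and with raw totals it turned to 0.34. At 36 h DESeq2 called the decrease (log2 fold change -0.48, adjusted p = 0.0474).

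Gclm, the modifier subunit that raises the affinity of the same enzyme, also stood highest at 0 h and lowest at 36 h in the group means. Its levels were 216, 215 and 194 CPM at 0 h, 176 and 188 CPM at 24 h, 188 and 149 CPM at 36 h, and 219, 154, 160 and 144 CPM at 48 h. Again 7 of 8 injured sections lay below all uninjured ones and 48 h A above. Its log2 fold changes were -0.20 (SE 0.18), -0.31 (SE 0.18) and -0.30 (SE 0.15), with adjusted p = 0.402, 0.208 and 0.119 at 24, 36 and 48 h; without 48 h section A the 48 h value was -0.45 (adjusted p = 0.0104). With raw totals all 3 turned positive (0.13, 0.13 and 0.23) and none was called.

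Slc7a11 encodes the cystine importer xCT, which feeds cysteine into glutathione synthesis. At 0 h a single UMI was counted in the 3 sections together, in section 4, against 207 UMIs at 24 h, 172 at 36 h and 1169 at 48 h. The levels were 2.15 and 3.41 CPM at 24 h, 2.52 and 2.43 CPM at 36 h, and 9.27, 1.17, 6.08 and 0.68 CPM at 48 h. Every injured section was above every uninjured one, and the 48 h sections split widely, with A and C high and B and D low. The ratio of UMIs per scaled total to 0 h was 359 at 24 h (95% counting interval 63.8 to 14266), 334 at 36 h (59.2 to 13278) and 613 at 48 h (110 to 24244). These intervals cover counting error only. The edgeR adjusted p was 0.00426, 0.00881 and 0.00165.

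Srxn1 encodes sulfiredoxin, which restores over-oxidised peroxiredoxins. The uninjured sections held 30.3, 27.8 and 28.7 CPM, and those of 24 h held 258 and 220 CPM. The 36 h sections then held 104 and 96.8 CPM, and the 48 h ones 128, 71.5, 116 and 49.8 CPM. The lowest injured section, 48 h D, was still above the highest uninjured one. The log2 fold change against 0 h was 3.05 at 24 h (SE 0.33, 8.27-fold, adjusted p = 0.000105), 1.79 at 36 h (SE 0.32, adjusted p = 0.00331) and 1.66 at 48 h (SE 0.28, adjusted p = 0.00108).

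Txnrd1, the cytosolic thioredoxin reductase, changed less. The sections held 102, 99.5 and 109 CPM at 0 h, 156 and 152 CPM at 24 h, 106 and 95 CPM at 36 h, and 142, 114, 119 and 112 CPM at 48 h. The 24 h sections stood above all others, and the 36 h sections overlapped the uninjured ones. The log2 fold change was 0.57 at 24 h (SE 0.12, adjusted p = 0.00361), -0.04 at 36 h (SE 0.12, adjusted p = 0.847) and 0.24 at 48 h (SE 0.10, adjusted p = 0.0843). With raw totals the 36 h and 48 h values were 0.40 and 0.76 and both were called.

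Gsr, the glutathione reductase, held 59.5, 56.5 and 56.3 CPM at 0 h and 57.4 and 58.3 CPM at 24 h. At 36 h its sections were far apart, at 39.2 and 69.6 CPM, and at 48 h they held 68.9, 51.3, 53.6 and 47.9 CPM. The groups overlapped at each time. Its log2 fold changes were 0.01 (SE 0.21), -0.08 (SE 0.21) and -0.05 (SE 0.18) at 24, 36 and 48 h; with raw totals the 48 h value was 0.48 and was called (adjusted p = 0.0301).

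Gpx2 is a glutathione peroxidase best known from gut epithelium. It was near the limit of detection at 0 h, with 12 UMIs in 3 sections (0.02, 0.11 and 0.14 CPM). The 24 h sections rose to 2.06 and 1.56 CPM, the 36 h ones held 0.67 and 0.71 CPM, and the 48 h ones 1.20, 0.38, 0.93 and 0.27 CPM. No injured section overlapped the uninjured ones. The ratio to 0 h was 21.0 at 24 h (95% counting interval 11.7 to 41.6), 7.77 at 36 h (4.07 to 16.1) and 8.13 at 48 h (4.55 to 16.0), with adjusted p = 0.000819, 0.0158 and 0.00442. The 36 h call was lost without 0 h 2 or 36 h B (adjusted p = 0.0535 and 0.0603).

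G6pdx encodes glucose-6-phosphate dehydrogenase, the entry enzyme of the pentose phosphate pathway, whose NADPH the reductases above consume. It held 12.9, 19.6 and 10.5 CPM at 0 h, 6.75 and 8.77 CPM at 24 h, 7.88 and 13.3 CPM at 36 h, and 12.4, 11.01, 17.8 and 12.2 CPM at 48 h. It was the only target called lower, at 24 h (log2 fold change -0.89, SE 0.32, adjusted p = 0.0427). That call rested on several single sections: it was lost without 0 h 2, 0 h 3, 24 h A or 24 h B (adjusted p = 0.0578, 0.122, 0.228 and 0.0826). The 0 h section 3, highest in G6pdx, also held 1688 CPM of the 5 erythroid markers, against 169 and 194 CPM in the other uninjured sections, and the part of red cells in its value was not tested.

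Nqo1 encodes a quinone reductase and is a standard reporter of NRF2 activity. It held 3.92, 3.50 and 3.22 CPM at 0 h, 13.0 and 8.77 CPM at 24 h, 5.30 and 8.36 CPM at 36 h, and 10.1, 7.29, 8.21 and 5.42 CPM at 48 h. All injured sections exceeded the uninjured ones. The log2 fold change was 1.62 at 24 h (SE 0.27, 3.07-fold, adjusted p = 0.00101), 0.94 at 36 h (SE 0.28, adjusted p = 0.0275) and 1.13 at 48 h (SE 0.24, adjusted p = 0.00328). The 36 h call was lost without any 1 of 0 h 2, 0 h 3, 0 h 4 and 36 h B (adjusted p = 0.0525, 0.0712, 0.0761 and 0.233).

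Hmox1 encodes heme oxygenase 1, which degrades heme and is also abundant in macrophages that clear red cells. It held 11.7, 14.0 and 12.4 CPM at 0 h, 49.8 and 83.6 CPM at 24 h, 25.6 and 44.6 CPM at 36 h, and 64.3, 55.4, 83.2 and 47.6 CPM at 48 h. The injured sections lay wholly above the uninjured ones. The log2 fold change was 2.39 at 24 h (SE 0.29, 5.24-fold, adjusted p = 0.00021), 1.47 at 36 h (SE 0.29, adjusted p = 0.00561) and 2.30 at 48 h (SE 0.27, 4.93-fold, adjusted p = 0.000134). The 36 h call was lost without 36 h B (adjusted p = 0.0603).

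**Figure D2:**
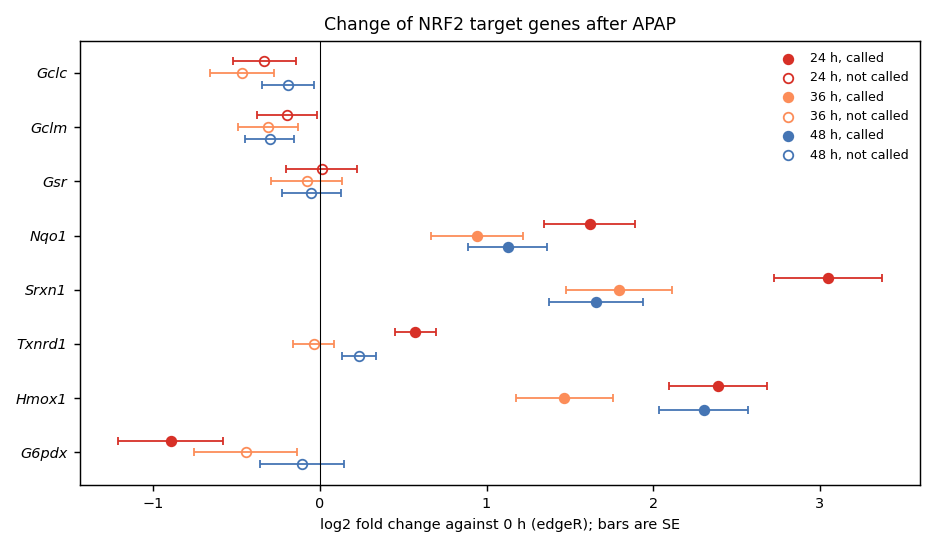
Log2 fold change against 0 h (horizontal axis) of the 8 genes with usable counts at 0 h, with bars of 1 SE; filled points were called and open points were not. Srxn1, Hmox1 and Nqo1 are right of 0 at all 3 times, and Gclc, Gclm and Gsr have open points throughout.

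From 24 to 36 h, 2 of the 10 genes were called, both lower, where 15.6% of all genes were called (8.58% lower). Srxn1 fell by 1.25 on the log2 scale (SE 0.35, adjusted p = 0.0399) and Txnrd1 fell by 0.61 (SE 0.13, adjusted p = 0.0166). Hmox1 and Nqo1 had log2 fold changes of -0.92 and -0.68 with adjusted p = 0.0774 and 0.142 and were not called. The others had -0.13 (Gclc), -0.11 (Gclm), -0.09 (Gsr), -0.16 (Slc7a11), -1.40 (Gpx2) and 0.45 (G6pdx) and were not called. The 2 groups did not overlap in 5 of the 10 genes, beside 54.1% of all genes. No more than 1 of the 10 was called when any single section of either time was left out: the call of Srxn1 was lost without each of the 4, and that of Txnrd1 without 24 h A, 24 h B or 36 h B. From 36 to 48 h none of the 10 was called by edgeR, while 2 had an unadjusted p under 0.05 (Hmox1 and Txnrd1, log2 fold changes 0.84 and 0.27) and DESeq2 called 1; of all genes 3.05% were called. The groups did not overlap in 2 of the 10 genes (Txnrd1 and Hmox1), beside 25.7% of all genes. The other log2 fold changes were 0.28 (Gclc), 0.01 (Gclm), 0.03 (Gsr), 0.18 (Nqo1), -0.14 (Srxn1), 0.80 (Slc7a11), 0.03 (Gpx2) and 0.34 (G6pdx).

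Regulators of the pathway were read from a list of 8 genes. At 24 h 4 of the 8 were called higher and 2 lower, beside 23.1% and 18.6% of all genes, with a median log2 fold change of 0.18 beside 0.05 over all genes; raw totals gave 4 higher and none lower. Mafk, a small MAF partner of NRF2, rose from a mean of 9.79 CPM at 0 h to 40.3 CPM at 24 h (log2 fold change 2.04, SE 0.14, adjusted p = 2.4e-05). Its relative Mafg was called higher at 36 h (0.58, SE 0.16, adjusted p = 0.0218). Nfe2l2 mRNA itself fell from a mean of 50.7 CPM to 36.0 CPM at 24 h and stood at 66.8 CPM at 48 h (24 h log2 fold change -0.50, SE 0.17, adjusted p = 0.0404). Sqstm1, whose product p62 binds KEAP1, was called lower at 48 h (-0.47, SE 0.13, adjusted p = 0.0113), with means of 286, 420, 243 and 206 CPM at the 4 times. With raw totals neither the fall of Nfe2l2 at 24 h nor that of Sqstm1 at 48 h was called. The list split into 3 higher and 1 lower at 36 h (5 and 0 with raw totals), where 29.2% of all genes were called, and into 1 higher and 2 lower at 48 h (6 and 0), where 44.2% were.

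The split of 22 other reported NRF2 targets depended on the scaling. At 24 h 6 of them rose and 4 fell, at 36 h 5 rose and 4 fell, and at 48 h 5 rose and 5 fell, with median log2 fold changes of -0.10, -0.23 and -0.17; raw totals gave 8 and 3, 8 and 1, and 9 and 1. Of all genes 41.7%, 29.2% and 44.2% were called at these times. Gsta1, a glutathione S-transferase, rose from a mean of 4.35 to 349 CPM at 24 h (log2 fold change 6.32, SE 0.64, adjusted p = 9.65e-05). Fth1, the ferritin heavy chain that stores iron, rose from 4222 to 12677 CPM (1.59, SE 0.19, adjusted p = 0.000146). Reads of both could be shared with near-identical copies. Me1, the NADPH-forming malic enzyme, and Ephx1, an epoxide hydrolase, were lower at 48 h (log2 fold changes -2.29 and -1.02, adjusted p = 0.000173 and 0.00227).

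Of 12 genes that supply or turn over glutathione outside the 10, 11 were tested, of which 3 rose and 7 fell at 24 h (3 and 4 with raw totals), 1 rose and 3 fell at 36 h (5 and 1), and 2 rose and 3 fell at 48 h (4 and 0). The median log2 fold changes were -0.82, 0.19 and -0.37, and 41.7%, 29.2% and 44.2% of all genes were called, so the list stood near all genes at 36 and 48 h. Slc3a2, the partner chain of xCT, rose 2.38-fold at 24 h (log2 fold change 1.25, SE 0.15, adjusted p = 0.000146), and Gss, glutathione synthetase, rose 1.86-fold (0.89, SE 0.13, adjusted p = 0.000382). Cth, which makes cysteine from cystathionine, fell from 329.9 to 51.6 CPM at 24 h (-2.68, SE 0.25, adjusted p = 5.49e-05), and Gnmt, a glycine methyltransferase, fell from 2832 to 601 CPM (-2.24, SE 0.21, adjusted p = 5.23e-05).

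Of 15 antioxidant enzymes outside the pathway lists, 1 rose and 7 fell at 24 h (3 and 4 with raw totals), 1 rose and 5 fell at 36 h (3 and 2), and 1 rose and 8 fell at 48 h (3 and 2), with median log2 fold changes of -0.36, -0.24 and -0.32, where 41.7%, 29.2% and 44.2% of all genes were called. Catalase (Cat) fell from 3208 to 881 CPM and Gpx1 from 4641 to 1317 CPM at 24 h (log2 fold changes -1.87 and -1.82, adjusted p = 0.000299 and 0.000605). Gpx3, a secreted peroxidase, rose at 48 h (2.09, SE 0.49, adjusted p = 0.00681), and Txn2, mitochondrial thioredoxin, at 24 h (0.35, SE 0.12, adjusted p = 0.0387).

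In uninjured liver the differences of the tested targets along the lobule were at most 1.35-fold (Nqo1). Spots were ordered by 7 central and 7 portal landmark genes (Glul and Cyp2e1 among the first, Cyp2f2 and Hal among the second), and the most central tertile was compared with the most portal tertile of the same 3 sections. Of the 8 genes with enough counts, 4 were called, 2 central and 2 portal, where 24.8% of the 12327 genes tested were called (12% central and 12.8% portal); raw totals gave 4 central and 1 portal. Slc7a11 and Gpx2 were too rare to be tested. Of the 22 other reported targets 21 were tested here. Of these 12 were called higher in central spots and 4 lower (14 and 3 with raw totals), with a median log2 fold change of 0.21.

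Nqo1 was 1.35-fold higher in central spots, with 4.09, 3.53 and 2.51 CPM against 2.57, 2.70 and 2.30 CPM in the portal spots of sections 2, 3 and 4 (log2 fold change 0.43, SE 0.15, adjusted p = 0.0468). Gsr was higher by 0.18 (SE 0.04, adjusted p = 0.00323). G6pdx was lower in central spots by 0.42 (log2 fold change -0.42, SE 0.09, adjusted p = 0.00143), and so was Hmox1 (-0.27, SE 0.09, adjusted p = 0.0361). Each of the 4 had the same sign in all 3 sections. The other genes, Gclc, Gclm, Srxn1 and Txnrd1, had log2 fold changes of 0.03, 0.07, 0.04 and 0.08 and were not called. The calls of Nqo1 and Hmox1 were lost without section 2, and these and that of G6pdx without section 3.

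**Figure D3:**
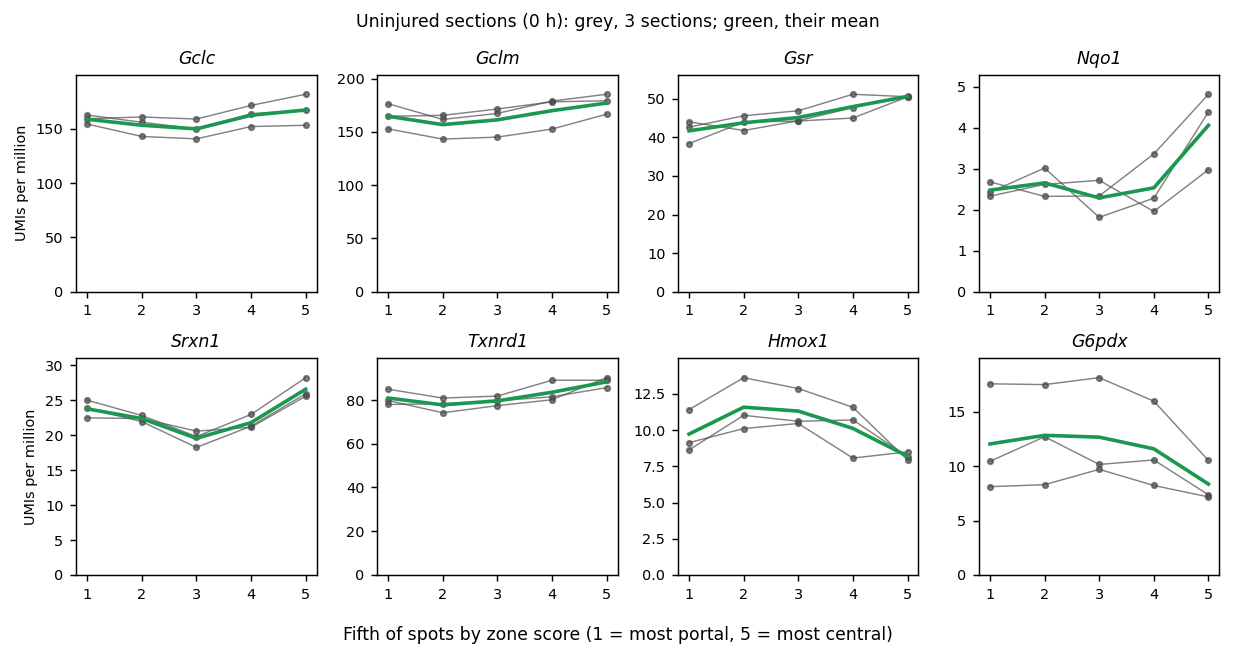
UMIs per 1000000 UMIs (vertical axes, from 0) of the 8 genes in the 3 uninjured sections, in quintiles of spots from the most portal (1) to the most central (5); grey lines are sections and the green line is their mean. Nqo1 is highest in the most central quintile, at a mean of 4.06 on this scale, and Hmox1 is lowest there, at 8.20.

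After APAP the targets were mostly higher where hepatocyte transcripts were scarce. Hepatocyte-poor spots were the lowest 10% of each section by the 6 hepatocyte transcripts, adjacent spots touched one, and far spots were at least 3 grid steps away. Sums per class were compared within sections. Raw totals in place of TMM raised the median log2 fold change of all genes in hepatocyte-poor against far spots after APAP. It went from 0.00 to 0.39 at 24 h, from 0.03 to 0.46 at 36 h and from 0.09 to 0.59 at 48 h. Shares of all genes called are given with TMM only, so counts with raw totals have no such share beside them. The class is defined by mRNA and does not measure necrosis. At 0 h, 1 of the 8 genes above the floor of 3 counts was called between hepatocyte-poor and far spots, beside 11.6% of the 13708 genes tested (8.41% lower); Slc7a11 and Gpx2 are left out there. It was G6pdx, at 8.61, 16.6 and 7.88 CPM against 13.9, 21.9 and 12.3 CPM (log2 fold change -0.54, SE 0.16, adjusted p = 0.0134), and no other gene was called. The others had log2 fold changes of -0.02 (Gclc), -0.0022 (Gclm), -0.07 (Gsr), 0.48 (Nqo1), -0.12 (Srxn1), -0.10 (Txnrd1) and -0.28 (Hmox1). Without section 2 or 4 none was called, with the study's hepatocyte list G6pdx turned to 0.23, and with raw totals 1 gene was called higher and none lower.

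The uninjured hepatocyte-poor spots were shallow, with medians of 4279 to 16250 UMIs per spot against 19864.5 to 35528 in far spots, and rich in central landmark transcripts (8084 to 11120 CPM against 3860 to 4751 CPM). After APAP the depth of both classes was closer, at 15545.5 to 26593 UMIs against 13471.5 to 28188. The part of depth and zone in the 0 h values was not tested. With only spots of at least 10000 UMIs, a choice made after seeing these depths, the count at 0 h was again 1. A count of calls alone does not show the part of depth.

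At 24 h 9 of the 10 genes were called higher in hepatocyte-poor than in far spots, where 13.9% of all genes were called higher and 30.1% in either direction. Srxn1 held 572 and 459 CPM in the poor spots of sections A and B against 221 and 167 CPM in the far spots (log2 fold change 1.41, SE 0.19, adjusted p = 2.89e-05). Nqo1 held 24.0 and 20.3 CPM against 11.2 and 5.70 CPM (1.34, SE 0.18, adjusted p = 3.12e-08). Hmox1 held 88.8 and 179 CPM against 50.3 and 69.8 CPM (1.08, SE 0.17, adjusted p = 9.19e-05). In these genes both sections showed the same direction.

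The glutathione genes parted at 24 h. Gclc was higher in hepatocyte-poor spots, at 215 and 254 CPM against 139 and 164 CPM (log2 fold change 0.63, SE 0.13, adjusted p = 0.000571), while Gclm held 197 and 197 CPM against 178 and 198 CPM and was not called (0.07, SE 0.08, adjusted p = 0.519; called with raw totals). Txnrd1 and Gsr were higher by 0.67 and 0.71 (SE 0.08 and 0.11). G6pdx was higher by 0.78 (SE 0.20), and Slc7a11 and Gpx2, with 41 and 36 UMIs in the poor spots, by 1.17 (SE 0.37) and 1.90 (SE 0.44). These last calls were lost without single sections: that of G6pdx without B (0.54, adjusted p = 0.161), of Slc7a11 without A or B (adjusted p = 0.0953 and 0.202) and of Gpx2 without A (1.26, adjusted p = 0.329).

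At 36 h 7 of 10 were called higher and 1 lower, beside 36.2% of all genes (18.2% higher and 18% lower); raw totals gave 9 higher and none lower. Hmox1 held 62.8 and 125 CPM against 22.8 and 31.6 CPM (log2 fold change 1.77, SE 0.20, adjusted p = 2.06e-06), and G6pdx 15.1 and 27.4 CPM against 5.11 and 11.3 CPM (1.36, SE 0.18, adjusted p = 2.43e-08). Srxn1 differed between sections, at 255 against 78.9 CPM in A and 132 against 90.7 CPM in B (1.13, SE 0.21, adjusted p = 0.000511). Gclm was called lower, at 148 and 124 CPM against 211 and 165 CPM (-0.46, SE 0.08, adjusted p = 4.91e-06). Gclc and Gpx2 were not called (0.13 and 1.42, adjusted p = 0.49 and 0.153). Slc7a11 was called at 1.01 (SE 0.40, adjusted p = 0.0457), but the value was 0.11 without section A (adjusted p = 0.918) and -0.01 with the study's own hepatocyte list. Txnrd1 and Gsr were higher by 0.49 (SE 0.08) and 0.66 (SE 0.11). Nqo1 was 2.15-fold higher (adjusted p = 0.000137), and its call was lost without section A (log2 fold change 0.73, adjusted p = 0.068).

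At 48 h all 10 were called, 8 higher and 2 lower, beside 69.3% of all genes (39% higher and 30.3% lower). Hmox1 held 202, 174, 270 and 160 CPM in the hepatocyte-poor spots of sections A to D against 40.0, 43.1, 43.5 and 28.6 CPM in far spots (log2 fold change 2.38, SE 0.11, 5.21-fold, adjusted p = 4.54e-12). G6pdx held 30.6, 28.9, 36.4 and 32.4 CPM against 9.87, 9.46, 14.5 and 9.66 CPM (1.57, SE 0.09, 2.97-fold, adjusted p = 5.53e-21). In both genes the 2 classes did not overlap.

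Both subunits of glutamate-cysteine ligase were lower in hepatocyte-poor spots at 48 h. Gclm held 153, 97.4, 106 and 81.5 CPM against 265, 186, 198 and 177 CPM (log2 fold change -0.93, SE 0.05, adjusted p = 5.49e-21). Gclc held 245, 106, 131 and 106 CPM against 240, 168, 163 and 191 CPM (-0.43, SE 0.09, adjusted p = 0.000213), and section A did not show this direction. With raw totals Gclc turned to 0.08 and was not called. Srxn1 and Nqo1 were higher by 0.56 (SE 0.14) and 0.31 (SE 0.13), Txnrd1 and Gsr by 0.28 (SE 0.05) and 0.36 (SE 0.07), and Slc7a11 and Gpx2 by 1.05 (SE 0.19) and 1.13 (SE 0.38). The value of Gpx2 rested on 44 UMIs in poor and 36 in far spots, and section B did not show its direction; without section A it was 0.50 and not called (adjusted p = 0.404). The call of Nqo1 was lost without B or D (adjusted p = 0.141 and 0.0928).

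Of the 22 other reported targets 13 were called higher in hepatocyte-poor spots at 24 h and none lower, beside 13.9% of all genes higher. Raw totals, which raised the median log2 fold change of all genes there to 0.39, gave 20 and 0. At 36 h they split into 11 higher and 1 lower (19 and 1), beside 18.2% and 18% of all genes, and at 48 h into 10 higher and 10 lower (14 and 4), beside 39% and 30.3%. Of the 11 genes of glutathione supply, 6 were lower and 1 higher at 24 h (4 and 4 with raw totals), 7 and 1 at 36 h, and 10 and 1 at 48 h, where 30.1%, 36.2% and 69.3% of all genes were called, with median log2 fold changes of -0.36, -0.83 and -1.61 beside 0.00, 0.03 and 0.09 over all genes. Those genes are mostly hepatocyte enzymes, and the spots were chosen for low hepatocyte transcripts. At 48 h the 6 hepatocyte transcripts summed to 38105 to 54635 CPM in poor against 126315 to 153221 CPM in far spots. The part of that choice in these lists, and in the lower Gclm and Gclc at 48 h, was not tested.

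**Figure D4:**
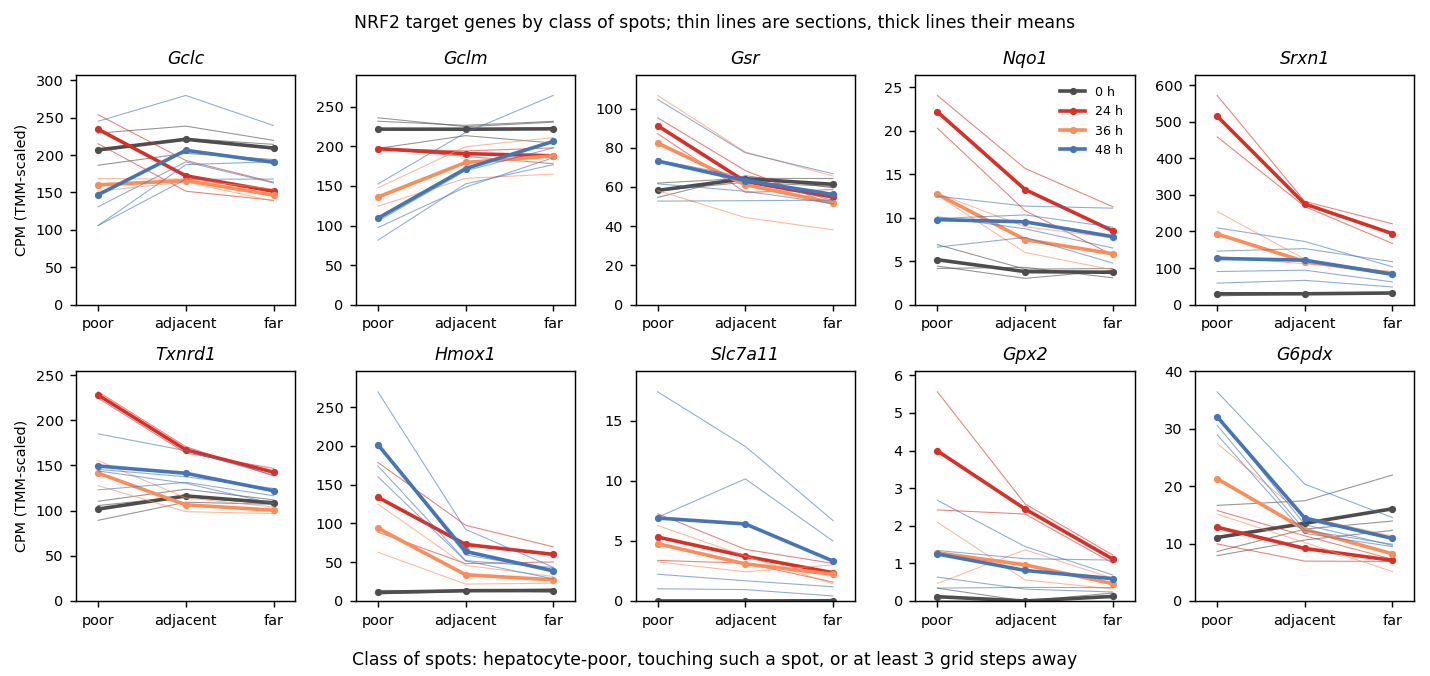
CPM (vertical axes, from 0) of each gene in hepatocyte-poor, adjacent and far spots; thin lines are sections, thick lines the mean of each time. Hmox1 and G6pdx climb towards hepatocyte-poor spots at 24, 36 and 48 h, and Gclm drops towards them at 36 and 48 h.

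Markers of most other cell types stood higher in the same spots, and their part in these differences was not tested. The 5 mononuclear phagocyte markers summed to 693 to 908 CPM in poor against 361 to 454 CPM in far spots at 24 h, 890 to 1109 against 255 to 390 CPM at 36 h, and 1749 to 3849 against 359 to 639 CPM at 48 h, but to 225 to 293 against 339 to 377 CPM at 0 h. The 7 mesenchyme markers summed to 1776 to 4179 CPM in poor and 474 to 1018 CPM in far spots at 48 h. The 5 Kupffer cell markers summed to 608 to 722 CPM in poor against 569 to 648 CPM in far spots at 24 h. In section A of 24 h they were lower in poor spots, at 608 against 648 CPM. At 36 h they summed to 617 to 842 against 406 to 543 CPM, and at 48 h to 895 to 1266 against 411 to 644 CPM. The 5 erythroid markers were highest in the poor spots of section B at each time, at 2794, 2514 and 2122 CPM against 659, 1130 and 555 CPM in its far spots at 24, 36 and 48 h. None of these markers was at 0 in either class at these times.

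Whether the difference between the classes itself changed after APAP was tested against the difference at 0 h, for the 8 genes with usable counts there. At 24 h 7 of the 8 differed, all upwards (7.37% of all genes upwards, 16% either way), led by Srxn1 (1.53, SE 0.30, adjusted p = 0.0024), Hmox1 (1.35, SE 0.31, adjusted p = 0.0063) and G6pdx (1.33, SE 0.25, adjusted p = 0.000101). At 36 h 6 of 8 differed, 5 up and 1 down (22.7% of all genes, 11.3% up and 11.5% down; 6 and 0 with raw totals), with G6pdx at 1.90 (SE 0.24), Hmox1 at 2.05 (SE 0.33) and Gclm at -0.46 (SE 0.10). At 48 h 6 of 8 differed, 4 up and 2 down (44.8% of all genes, 23.8% up and 21.1% down; 5 and 1 with raw totals), with Hmox1 at 2.66 (SE 0.27, adjusted p = 3.57e-07), G6pdx at 2.11 (SE 0.17, adjusted p = 8.87e-15) and Gclm at -0.93 (SE 0.08, adjusted p = 1.18e-13). The genes that were not called were Gclm at 24 h (0.07), Gclc and Nqo1 at 36 h (0.15 and 0.62), and Srxn1 and Nqo1 at 48 h (0.68 and -0.17). The calls of Nqo1 and Gclc at 24 h, of Srxn1 at 36 h and of Gclc at 48 h were each lost without at least 1 single section. With raw totals the call of Gclc at 48 h was lost too (-0.089). The 3 tests share the 0 h sections and with them the shallow spots rich in central landmarks described above. In those landmarks, hepatocyte-poor spots held 793 to 1293 CPM against 595 to 1220 CPM in far spots at 24 h. At 36 h it was 857 to 1387 against 1275 to 1593 CPM. At 48 h it was 938 to 1170 against 1335 to 1998 CPM. Of the neighbours of hepatocyte-poor spots, 45.3% to 57.1% were hepatocyte-poor at 0 h and 26.3% to 34.1% after APAP. The part of zone and clustering was not tested.

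Next to the hepatocyte-poor spots fewer of the 10 genes were called, and most differences were smaller. At 48 h the log2 fold changes of Srxn1, Nqo1 and Slc7a11 were nearly as large (0.54, 0.29 and 0.97 against 0.56, 0.31 and 1.05). Gclc stood at 0.18 against 0.13 at 36 h, and at 48 h it went the other way, at 0.10 against -0.43. In adjacent against far spots 1 of 10 was called at 24 h, beside 2.03% of all genes (0.438% higher): Nqo1, at 15.6 and 10.8 CPM against 11.2 and 5.70 CPM (log2 fold change 0.61, SE 0.16, adjusted p = 0.0272). At 24 h 5 genes had an unadjusted p under 0.05 (Nqo1, Srxn1 at 0.51, Slc7a11 at 0.72, Txnrd1 at 0.23 and Gpx2 at 1.14), the others stood at 0.18 (Gclc), 0.02 (Gclm), 0.17 (Gsr), 0.20 (Hmox1) and 0.30 (G6pdx), and the call of Nqo1 was lost when either section was left out. At 36 h none was called by edgeR, while 3 had an unadjusted p under 0.05 (Srxn1 at 0.45, G6pdx at 0.60 and Gsr at 0.24); of all genes 1.52% were called. The others stood at 0.18 (Gclc), -0.06 (Gclm), 0.38 (Slc7a11), 0.08 (Txnrd1), 0.99 (Gpx2), 0.33 (Nqo1) and 0.30 (Hmox1). At 48 h 6 were called higher and 1 lower, beside 32.2% of all genes, 16.3% and 15.9% in these directions (8 higher and none lower with raw totals), with Slc7a11 at 0.97 (SE 0.17), Hmox1 at 0.71 (SE 0.11), Srxn1 at 0.54 (SE 0.14), G6pdx at 0.41 (SE 0.09), Nqo1 at 0.29 (SE 0.11), Txnrd1 at 0.21 (SE 0.05) and Gclm at -0.26 (SE 0.05). The call of Nqo1 was lost without B, C or D, and Gclc (0.10), Gsr (0.17) and Gpx2 (0.48) were not called. At 48 h Srxn1 stood at 94.1, 153 and 66.2 CPM in the adjacent spots of sections B, C and D, above the 90.4, 146 and 58.6 CPM of their hepatocyte-poor spots, while Hmox1 was highest in hepatocyte-poor spots in all 4 sections.

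By single grid steps, on the scale of UMIs per 1000000 UMIs without TMM scaling, Srxn1 at 24 h had means of 613 in hepatocyte-poor spots, 276 at 1 step and 157 at 2 steps, and 214 at 5 steps or more. Hmox1 at 48 h had means of 278, 71.8 and 35.9 at 0, 1 and 2 steps. At 24 h Srxn1 was higher at 5 steps or more than at 2 steps in both sections.

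**Figure D5:**
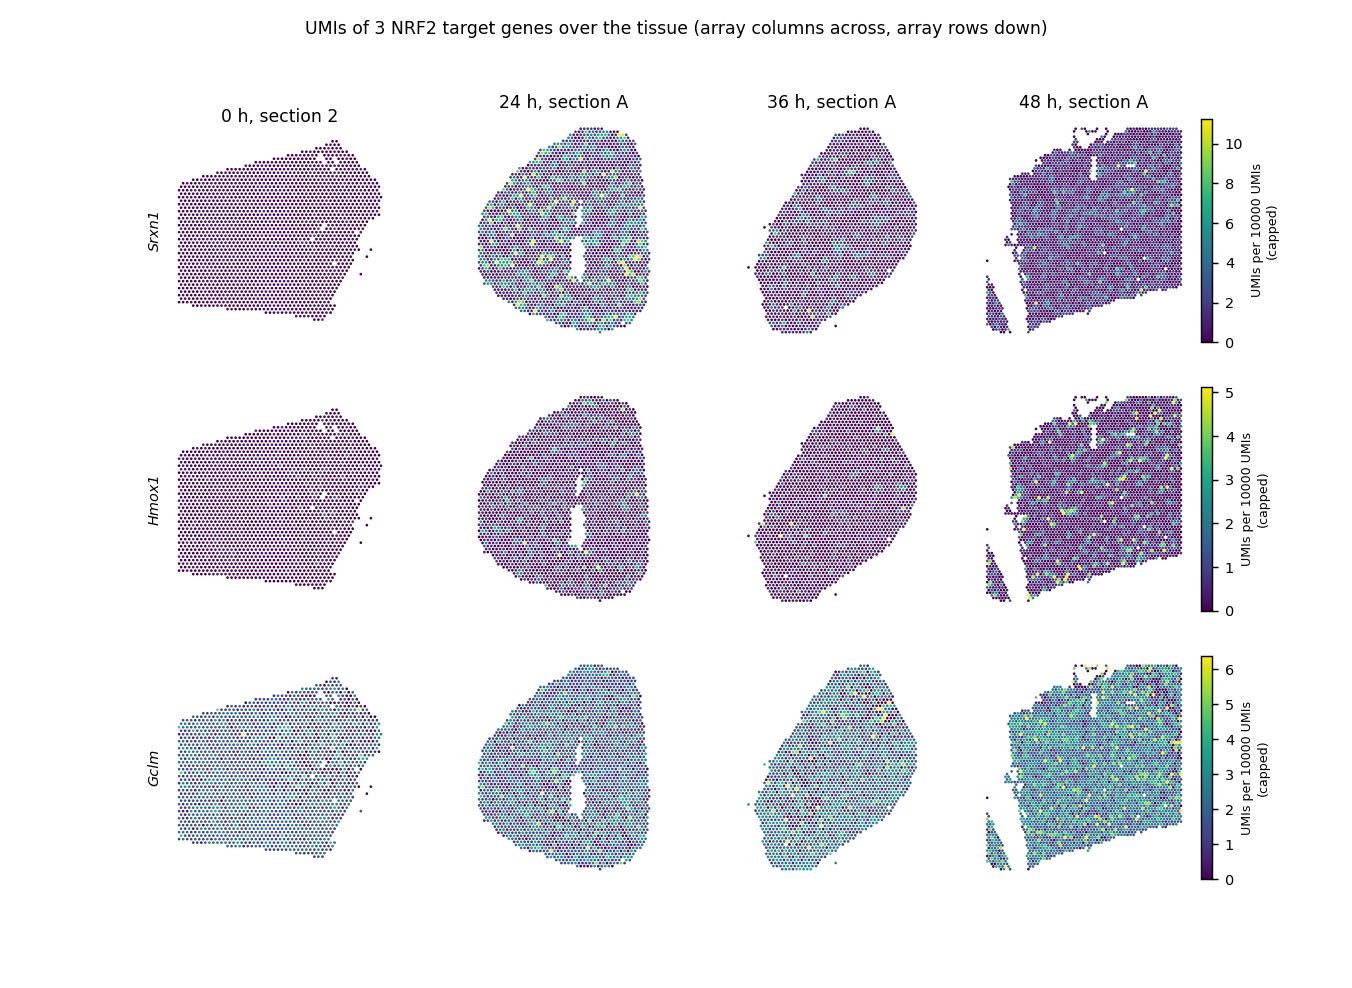
Maps of Srxn1, Hmox1 and Gclm (UMIs per 10000 UMIs of the spot, colour capped at the 99th percentile of the section with the highest) in 1 section of each time; each point is a spot at its place on the array. Srxn1 is seen over most of the 24 h section with scattered bright patches, Hmox1 in small patches at 48 h, and Gclm throughout all 4 sections.

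Spots with at least 1 UMI of a gene were counted after thinning each spot to 10000 UMIs, so that depth did not set the share, which left out 2 to 506 shallower spots of a section. For Srxn1 the share was 19.2% to 20.2% of spots at 0 h, 74.1% to 78.8% at 24 h, 56.0% to 58.6% at 36 h and 39.4% to 63.5% at 48 h (unthinned 34.1% to 46.6%, 85.9% to 89.1%, 66.1% to 72.7% and 67.5% to 82.9%). For Hmox1 it was 9.0% to 10.2%, 36.9% to 48.0%, 21.9% to 33.2% and 32.6% to 45.5% (unthinned 15.9% to 22.3%, 52.3% to 61.0%, 30.4% to 41.3% and 48.1% to 64.8%). For Slc7a11 it was at most 0.0549% at 0 h and at most 8.52% in any injured section. Barcodes outside the tissue carried the same genes: per 1000000 UMIs, Srxn1 there was at 0.812 to 1.11 times and Hmox1 at 0.347 to 0.545 times its level on the tissue of the same section. Since RNA lay outside the tissue, a share of spots with a UMI is not a share of spots that express the gene.

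Genes that followed a target most closely over the 11 sections were found by correlating log2 of CPM plus 0.5. They are given as a description with no p, since the sections share their time points and scaling. The added 0.5 exceeded every uninjured value of Slc7a11 and Gpx2, at most 0.028 and 0.14 CPM. Differences between uninjured sections therefore hardly entered the r of these 2 genes. For Srxn1 they were Pgd (Pearson r = 0.971), Caskin2 (0.968) and Prmt1 (0.966), and for Gpx2 Srxn1 itself (0.982), Pgd (0.971) and Rab4a (0.953). Pgd, the NADPH-forming enzyme of the pentose phosphate pathway after G6pdx, was also among the 3 genes closest to Nqo1 (0.938). For Hmox1 they were Card19 (0.982), Tmem43 (0.976) and Aida (0.976), and for Slc7a11 Krt8 (0.922), Med15 (0.921) and Ctbs (0.917). Among the 10 themselves, Gclc and Gclm had r = 0.783 with each other, and each had a negative r with Srxn1, Hmox1, Nqo1, Slc7a11 and Gpx2 (from -0.514 to -0.151). G6pdx had r = -0.545 with Srxn1.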

How the data were processed

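Reads had been mapped to the mouse build mm10 by Space Ranger 1.0.0, and the authors deposited unnormalised UMI counts of 31053 genes at every barcode of the array. The submitters' processing notes also name Seurat 4.1.1, whose output was not used here.

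The study's filter was applied to spots under the deposited tissue mask: 800 or more genes, and no more than 20% of UMIs from mitochondrial genes. The study's manual removal of spots was not repeated. UMIs were summed per section, or per section and class of spots, because spots are not replicates, and tested with edgeR 4.0.16 in R 4.3.3 (filterByExpr, TMM, robust quasi-likelihood fit, two-sided, Benjamini-Hochberg over all genes tested). All 11 sections shared 1 fit for time and 1 for hepatocyte-poor, adjacent and far spots, the latter with section as a block. Zones at 0 h used the 3 uninjured sections with section as a block. Hepatocyte and zone scores were means over the list of ln(1 + UMIs per 10000), for zones as z-scores within the section. Alternatives were DESeq2 1.42.0, raw totals, no filter, each section left out, and other definitions of the classes.

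The 10 genes, the lists and the tests were chosen with earlier results of these data known. All 10 genes are named in each comparison; of each list, the called genes of at least 10 mean CPM with the 2 largest rises and the 2 largest falls against 0 h are named. Counts were simulated from these sections over 14821 genes for 24 h against 0 h. In them 63 of 66 genes changed 4-fold were recovered, 49 of 67 changed 2-fold and 12 of 67 changed 1.5-fold. Of the calls 8.82% were false. Only those genes were changed there, whereas 41.7% of all genes were called in the data at 24 h. The shares recovered therefore need not hold for the data, and a miss at 24 h is not read as no change. Section totals of 31292663 to 67045372 UMIs set the counting precision. Sequences came from RefSeq (GRCm38.p6).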

Additional observations from a re-analysis of the deposited data

Results flagged for a closer look

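The difference between hepatocyte-poor and far spots was larger or smaller than at 0 h, by a test of the difference itself, in 19 cases among the 8 genes with usable counts. On the log2 scale at 24 h it exceeded that at 0 h by 0.65 for Gclc, 0.79 for Gsr, 0.86 for Nqo1, 1.53 for Srxn1, 0.77 for Txnrd1, 1.35 for Hmox1 and 1.33 for G6pdx. At 36 h the change was -0.46 for Gclm, 0.74 for Gsr, 1.25 for Srxn1, 0.59 for Txnrd1, 2.05 for Hmox1 and 1.90 for G6pdx. At 48 h it was -0.41 for Gclc, -0.93 for Gclm, 0.44 for Gsr, 0.38 for Txnrd1, 2.66 for Hmox1 and 2.11 for G6pdx. Gclc was thus above its 0 h difference at 24 h and below it at 48 h, but both calls were lost without at least 1 single section. With raw totals its 48 h value was -0.089 and was not called. The hepatocyte-poor spots at 0 h were shallow and rich in central landmark transcripts. The part of depth in these values was not tested. With only spots of at least 10000 UMIs, chosen after seeing the data, the counts were again 7, 6 and 6. Such counts alone do not show the part of depth. The part of zone was not tested.

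Barcodes outside the tissue, which enter no comparison, held more of 8 targets in every injured section than in any 0 h section. The highest values after APAP were 211 UMIs per 1000000 UMIs for Gclm, 72.1 for Gsr, 15.7 for Nqo1, 245 for Srxn1, 124 for Txnrd1, 38.6 for Hmox1, 7.73 for Slc7a11 and 2.55 for Gpx2. The highest values at 0 h were 139.6 for Gclm, 41.4 for Gsr, 2.51 for Nqo1, 21.4 for Srxn1, 65.5 for Txnrd1 and 4.96 for Hmox1, with no UMI of Slc7a11 or Gpx2. These values are relative to raw totals, the scaling that raised most genes after APAP also on the tissue, and whether the small gaps of Gclm (lowest injured section 144) and Gsr (42.9) hold under another scaling was not tested.

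Among 28 sets of 4 values at 48 h (levels and class ratios of the 10 genes), none held a section that stood apart by Dixon's test, which by chance alone marks about 1 set in 20.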

How the results depend on the processing

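Of 1132 single-gene values recomputed under an alternative, 952 kept both their direction and their side of the threshold, 136 lost a call, 8 gained one and 36 changed sign. DESeq2 left 46 of 50 as they were, all spots under the mask 50 of 50, no filter 47 of 50, raw totals 89 of 109, and spots of at least 10000 UMIs, chosen after seeing the data, 54 of 55. The causes of the changes were not tested.

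With raw totals, log2 fold changes turned to 0.13 (Gclm, 24 h against 0 h), 0.13 (Gclm), 0.40 (Txnrd1) and 0.35 (Gsr) at 36 h, 0.42 (G6pdx), 0.23 (Gclm), 0.48 (Gsr) and 0.34 (Gclc) at 48 h, 0.00203 (Gclm) and 0.014 (Gsr) from 24 to 36 h, and 0.078 (Gclc, hepatocyte-poor against far at 48 h). Gsr at 24 h was -0.033 with no filter, -0.00357 with DESeq2 and -0.025 with only the 2 groups compared. With the study's hepatocyte list, G6pdx at 0 h turned to 0.23 and Slc7a11 at 36 h to -0.00770 between hepatocyte-poor and far spots.

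From 24 to 36 h the 2 calls became 1 with raw totals, 1 with no filter, 0 with only the 2 groups compared and 3 with DESeq2, and from 36 to 48 h DESeq2 called 1 where edgeR called 0. At 0 h the lowest twentieth gave 0 calls in place of 1, and the study's hepatocyte list gave 5 in place of 8 at 36 h. In adjacent spots raw totals gave 2 calls at 24 h and 1 at 36 h, and spots of at least 10000 UMIs gave 1 at 36 h.

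Correlations of same-lettered deviations were 0.367 between 24 h and 36 h, and from -0.287 to 0.0936 between either of these and 48 h. With 2 sections at 24 h and at 36 h, A and B mirror each other and give 1 value. Whether letters pair the sections of these 2 times cannot be told. A replicate block by letter over the injured sections gave 0 calls from 24 to 36 h, against 1 without the block in the same sections (a comparison added after seeing the data), and 0 from 36 to 48 h. The spot comparisons hold the section as a replicate block, so that classes of 1 section are set side by side. Without it, calls fell to 0 between zones, to 0, 2, 3 and 4 for hepatocyte-poor spots at 0, 24, 36 and 48 h, to 0 for adjacent spots at 24 and 48 h, and to 0, 0 and 3 for the differences against 0 h.

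Leaving out 1 section at a time, calls ranged from 2 (without 36 h B) to 5 at 36 h against 0 h, from 0 to 1 from 24 to 36 h, from 1 (without 0 h 3) to 4 between zones, from 0 to 1 for hepatocyte-poor spots at 0 h, and were 0 for adjacent spots at 24 h. Signs changed for Gsr at 24 h (-0.046 to 0.022), 36 h (-0.55 to 0.27) and 48 h (-0.17 to 0.015) against 0 h, for Txnrd1 at 36 h (-0.12 to 0.042) and for G6pdx at 48 h (-0.29 to 0.18). From 24 to 36 h they changed for Slc7a11 (-0.47 to 0.20), Gclm (-0.29 to 0.081), Gsr (-0.52 to 0.26) and Gclc (-0.26 to 0.00762), and from 36 to 48 h for Srxn1 (-0.34 to 0.068), Gclm (-0.15 to 0.19), Gsr (-0.33 to 0.49), Nqo1 (-0.11 to 0.54) and Gpx2 (-0.37 to 0.30).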
